A study of Mus musculus with 4 samples.

Results

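Hemoglobin-rich barcodes were the cell barcodes of mouse aorta libraries in which transcripts of 4 adult hemoglobin genes, Hba-a1, Hba-a2, Hbb-bs and Hbb-bt, made up at least 20% of the unique molecular identifiers (UMIs, each standing for 1 captured RNA molecule). They were taken from the barcodes that held 500 or more UMIs, no more than 10% of them mitochondrial, called kept barcodes here. They numbered 1253 of 53866 kept barcodes, from 70795 barcodes in all. They were chosen by the measured hemoglobin share, so hemoglobin values describe them and support nothing further. Everything read from the remaining UMIs was outside the rule, apart from the limit on mitochondrial UMIs.

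Single cells of the aorta were profiled with a 10x Genomics 3′ kit in 4 libraries, 1 per group. The groups were WT mice on normal diet, LysM-DKO mice on normal diet, WT/ApoE-/- mice on western diet and LysM-DKO/ApoE-/- mice on western diet. Values below are given in that order. What LysM-DKO stands for is not written out in the labels, which give neither the number of animals in a library nor their strain, sex, age or time on diet. As background, the study concerns epsins, adaptor proteins of endocytosis, and LysM-Cre deletes genes in myeloid cells, which are not the erythroid lineage. ApoE-/- mice lack apolipoprotein E and become hypercholesterolemic, and here both western diet groups carry that deletion while neither normal diet group does. Per the labels, aortas were perfused with 30 mL of PBS and digested for 90 min at 37 °C before loading. Since each group is a single library, groups could not be tested against each other. Intervals are 95% intervals that cover counting error only, and they do not cover the spread between animals or preparations.

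Red cells mature from nucleated erythroblasts in the bone marrow, which fill with hemoglobin, expel the nucleus and enter blood as reticulocytes. A reticulocyte still holds RNA, which it loses together with its ribosomes and mitochondria as it becomes an erythrocyte. Hemoglobin is assembled from alpha and beta globin chains and heme. Heme synthesis starts in the mitochondrion with ALAS2, the erythroid aminolevulinate synthase, and ends there with ferrochelatase (FECH), which inserts iron. The lumen of the aorta is filled with blood in life.

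The 4 hemoglobin genes lie in 2 clusters. On GRCm38 (GENCODE M21), Hba-a1 (ENSMUSG00000069919) spans chr11:32283511-32284465 and Hba-a2 (ENSMUSG00000069917) chr11:32296489-32297298, both on the plus strand. Hbb-bs (ENSMUSG00000052305) spans chr7:103826534-103828096 and Hbb-bt (ENSMUSG00000073940) chr7:103812524-103813996, both on the minus strand. All 4 are protein coding, as is Alas2 (ENSMUSG00000025270), at chrX:150547375-150570638 on the plus strand. The stretches below, from RefSeq promoter windows of build GRCm38.p6, are shown because these genes are what the barcodes share. They are written 5′ to 3′ on the strand of the gene. The first set holds 30 bases around a TATA box, with ATATAA in capitals, which starts 28 to 31 bases before the RefSeq start in all 4 hemoglobin genes. The GENCODE M21 spans above differ from these starts: the stretches of Hba-a1, Hbb-bs and Hbb-bt lie inside them, that of Hba-a2 before its span. In exons annotated there lie 30 bases each of the Hba-a1 and Hbb-bt stretches and 0 of the other 2.
Hba-a1: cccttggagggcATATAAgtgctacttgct
Hba-a2: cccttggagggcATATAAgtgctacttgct
Hbb-bs: ccagggcagagcATATAAggtgaggtagga
Hbb-bt: ccagcattgggtATATAAagctgagcaggg

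The second set holds 30 bases around a CCAAT box, in capitals, for 1 alpha gene and both beta genes. Of the Hbb-bs and Hbb-bt stretches, 5 and 16 bases lie in exons annotated by GENCODE M21. In Hbb-bt the motif also lies on the opposite strand just before it, which is why 10 letters are in capitals.
Hba-a2: agcacaaaccagCCAATgagaactgctcca
Hbb-bs: ccctggtaagggCCAATctgctcacacagg
Hbb-bt: ccctggcATTGGCCAATctgctcagagagg

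A longer stretch of Hba-a2, chr11:32296368-32296487 on the plus strand, shows the order of the CCAAT box, a CACCC motif and the TATA box, all in capitals.
Hba-a2: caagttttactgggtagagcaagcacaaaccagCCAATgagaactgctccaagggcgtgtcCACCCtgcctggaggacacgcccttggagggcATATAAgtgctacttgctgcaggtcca

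The Alas2 stretch, chrX:150547319-150547348 on the plus strand, holds a GATAA motif read on the opposite strand (in capitals as TTATC), the kind of sequence bound by the GATA family.
Alas2: ctactttgctttTTATCtttagcagaggcc

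The 250 bases before the start were searched on both strands for 4 motifs: GATAA, the CACCC box, the CCAAT box and the letters ATATAA. All 4 motifs matched in the windows of all 4 hemoglobin genes, whereas the Alas2 window held GATAA and CACCC only. Of 32851 such windows in the table, the GATAA motif was in 22.6%, the CACCC box in 52%, the CCAAT box in 33.8% and ATATAA in 9.1%. These are matches of letters and not shown binding sites. The windows of Hba-a1 and Hba-a2 share 247 bases in a row, and their main transcripts share 415. Of the shorter transcript, 96.9% of the bases recur in the same order in the other, with gaps allowed anywhere. The split of reads between the pair is therefore uncertain. For the transcripts of Hbb-bs and Hbb-bt the corresponding values are 430 bases and 94.3%, so the split of reads between them is uncertain too.

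Hemoglobin-rich barcodes were common in the normal diet libraries and rare in the western diet libraries. There were 560, 584, 63 and 46 of them among 9039, 9636, 26156 and 9035 kept barcodes. Their share on normal diet was 6.20% for WT (exact binomial interval 5.71 to 6.71) and 6.06% for LysM-DKO (5.59 to 6.56). In the western diet libraries it was 0.241% (0.185 to 0.308) in WT/ApoE-/- and 0.509% (0.373 to 0.679) in LysM-DKO/ApoE-/-. The difference between western and normal diet was -5.95 percentage points (Newcombe interval -6.47 to -5.47) for WT and -5.55 (-6.06 to -5.06) for LysM-DKO. Diet differed together with the ApoE genotype and the Cell Ranger version, and these cannot be told apart. LysM-DKO minus WT was -0.135 points (-0.825 to 0.553) on normal diet, where the intervals of the shares overlap, and 0.268 points (0.124 to 0.445) on western diet. Both depend on the limits: with at least 50% hemoglobin the normal diet difference was -0.751 points (-1.35 to -0.154), while the western diet difference was 0.146 (-0.00695 to 0.329) with at least 10% and -0.0306 with a minimum of 1000 UMIs. A lower share can come from fewer hemoglobin-rich barcodes or from more barcodes of other cells, which shares alone do not tell apart. The other kept barcodes numbered 8479, 9052, 26093 and 8989. In the LysM-DKO pair they were thus close in number, while hemoglobin-rich barcodes were 584 and 46. In the WT pair hemoglobin-rich barcodes were fewer on western diet and the others more. What set these numbers, such as the cells loaded, was not tested.

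**Figure D1:**
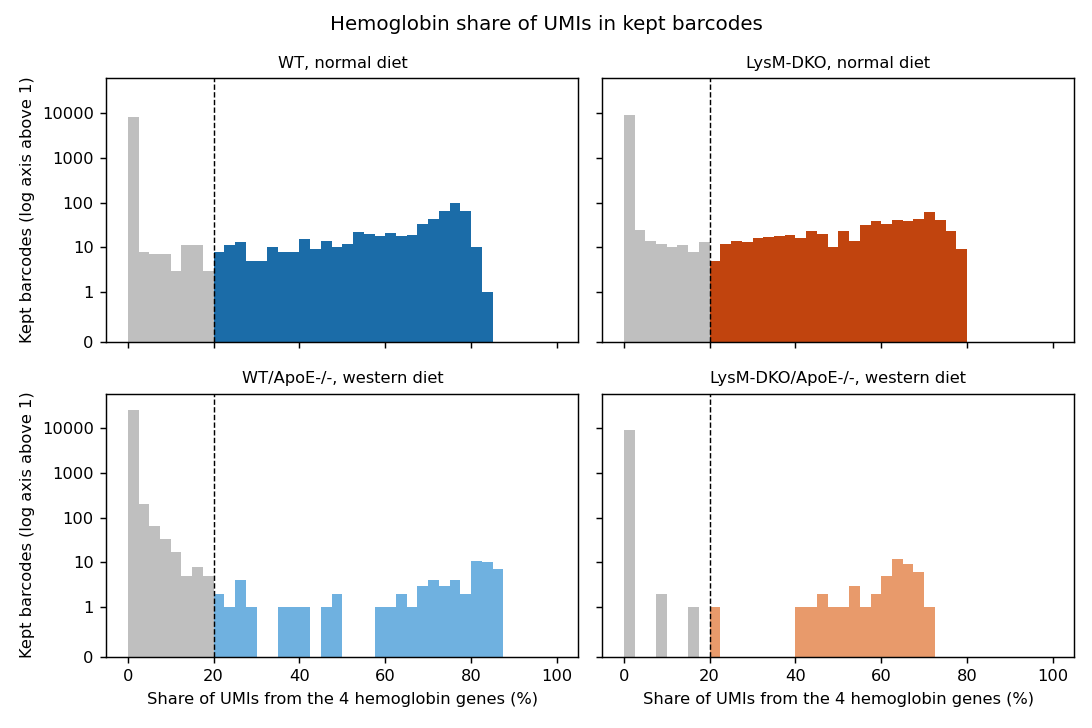
Number of kept barcodes (y, log axis above 1) in bins of 2.5% of the hemoglobin share of UMIs (x) in each library, with bins from 20% upward in color. In all 4 libraries most barcodes sit in the lowest bin, and the hemoglobin-rich barcodes reach 84.3, 79.8, 86.7 and 70.4% with few barcodes around the dashed line at 20%.

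Few barcodes lay near the 20% limit. Just outside it, from 15 to 20%, were 14, 21, 13 and 1 barcodes, and just inside, from 20 to 25%, were 19, 17, 3 and 1. The median hemoglobin share of a hemoglobin-rich barcode was 70.0, 60.2, 77.3 and 63.4%. Summed over barcodes, hemoglobin made up 64.2, 58.2, 71.4 and 61.7% of their UMIs. A further 29, 47, 0 and 2 barcodes passed 20% hemoglobin but were left out for more than 10% mitochondrial UMIs. The 4 libraries shared 469 barcode sequences over all pairs, 1 of them between hemoglobin-rich barcodes.

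The UMIs that were not hemoglobin were few in most of these barcodes. Their median was 592 (quartiles 511 and 715), 771.5 (663 and 915.5), 298 (237 and 380.5) and 354 (299.5 and 435) per hemoglobin-rich barcode, against 3655, 3005.5, 1051 and 6430 in the other kept barcodes of the same library. In the WT library on normal diet the median was 556 in barcodes of 25 to 40% hemoglobin, 539.5 at 40 to 60%, 607 at 60 to 80% and 599 above 80%. Total UMIs over the same bands were 832, 1125.5, 2388 and 3154 by the median, so above 25% a higher hemoglobin share went with more UMIs in all and little change in those of other genes. The 3 bands from 25 to 80% of the LysM-DKO library on normal diet were alike in this, at 747, 746 and 785 non-hemoglobin UMIs. In WT/ApoE-/- on western diet the UMIs of other genes were instead fewer at higher share, at 484, 361, 250 and 256.5 over the 4 bands from 25% upward, of 7, 5, 20 and 28 barcodes. The 19 WT barcodes of 20 to 25% on normal diet, with a median of 3702, lie apart from the other bands. The rank correlation of hemoglobin share with total UMIs was 0.53, 0.60, 0.59 and 0.40 across barcodes of a library, a description of barcodes that share a library. The fewest UMIs of any barcode in the 4 matrices were 557, 734, 500 and 500, so each library has its own lower limit on totals and barcodes with little hemoglobin under that limit are not seen.

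**Figure D2:**
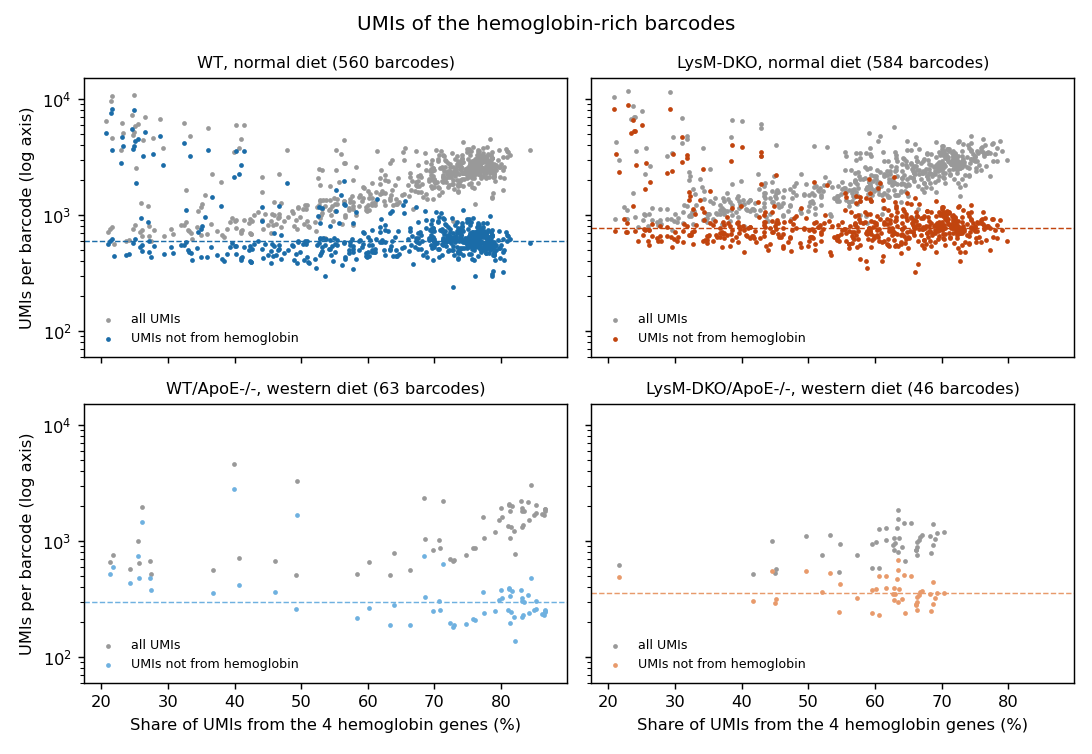
UMIs per hemoglobin-rich barcode (y, log axis) against its hemoglobin share (x) in each library: gray points are all UMIs, colored points the UMIs not from hemoglobin, and the dashed line their median (592, 771.5, 298 and 354). In the normal diet libraries most colored points form a flat band while the gray points rise, with a small group at low hemoglobin share well above it, and in WT/ApoE-/- the colored points are lower at high hemoglobin share.

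That small group stood apart and is given separately, by a limit chosen after the values were seen. It held 26, 28, 1 and 0 hemoglobin-rich barcodes with at least 2000 UMIs of other genes, with 3799, 3308 and 2791 such UMIs by the median. Of these, 19 and 17 on normal diet were among the barcodes marked as doublets by scrublet, against 9 and 7 of the remaining 534 and 556. Over all hemoglobin-rich barcodes, 28 of 560 and 24 of 584 were marked. Marking took the highest scores up to a set share of scored barcodes, so these counts describe and do not test. The share marked among all kept barcodes is not given here. Under the 20% rule, barcodes with more UMIs of other genes need more hemoglobin UMIs. The deep ones had 1531.5 and 1745.5 hemoglobin UMIs by the median, against 1506.5 and 1189 in the remaining barcodes. Malat1, a nuclear RNA, was at 38325 and 42571 CPM (UMIs scaled to 1000000 non-hemoglobin UMIs) in them and at 14248 and 15661 CPM in the remaining ones. They supplied 24.8, 20.2 and 11.2% of the non-hemoglobin UMIs of the hemoglobin-rich barcodes in the first 3 libraries, so sums over all barcodes below mix both kinds. Hemoglobin-rich barcodes under 1000 UMIs, 82, 43, 25 and 26 in number, were not scored for doublets. On normal diet they are counted within the remaining 534 and 556.

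All 4 hemoglobin genes were present in nearly every barcode. Hbb-bs, the larger source of adult beta globin, had 393715, 393054, 37625 and 14335 UMIs in the hemoglobin-rich barcodes. Hba-a1 had 197343, 183374, 12041 and 6536, and its near copy Hba-a2 had 152658, 139593, 9513 and 4614. Hbb-bt had 54438, 65287, 3105 and 2321. The alpha genes thus made up 43.9, 41.3, 34.6 and 40.1% of hemoglobin UMIs, lowest in WT/ApoE-/- on western diet. Hbb-bt made up 12.1, 14.2, 7.62 and 13.9% of beta UMIs, with that library again the lowest. Counting intervals of the 4 Hbb-bt shares did not overlap apart from those of LysM-DKO and LysM-DKO/ApoE-/-. These intervals leave out the uncertain split of reads between Hbb-bs and Hbb-bt, and the Cell Ranger version differed between the diets. In the other kept barcodes, which hold some hemoglobin, the alpha share was 43.7, 41.4, 32.1 and 37.2%, in the same order of libraries, and in those under 1% hemoglobin it was 40.3, 37.7, 29.4 and 36.3%. Hba-a1 took 56.4, 56.8, 55.9 and 58.6% of alpha UMIs, subject to the uncertain split of the pair.

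Outside the rule, genes of late red cell maturation stood far above the other barcodes in every library. Levels are given in the same CPM of non-hemoglobin UMIs, and ratios as log2 of hemoglobin-rich over other kept barcodes of the same library with 0.5 UMIs added. The list of 17 late maturation genes summed to 19477, 15487, 30939 and 42536 CPM, against 345, 350, 330 and 282 in the other barcodes. These are log2 ratios of 5.82 (interval 5.78 to 5.86), 5.47 (5.43 to 5.51), 6.55 (6.44 to 6.65) and 7.24 (7.13 to 7.34). Heme synthesis, 11 genes, summed to 7034, 5743, 8805 and 12170 CPM against 178, 198, 220 and 232. Membrane and skeleton, 19 genes, summed to 3565, 2960, 3562 and 5563 against 334, 364, 305 and 273. These genes did not choose the barcodes, but the lists were chosen with earlier results of these data known. The sums therefore describe the barcodes and do not test their red cell label. Without the barcodes of at least 2000 non-hemoglobin UMIs, late maturation was at 23970, 17652, 33207 and 42536 CPM and heme synthesis at 8681, 6702, 9597 and 12170.

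Of 75 genes in 6 erythroid lists, 43, 49, 17 and 22 had at least 10 UMIs in the hemoglobin-rich barcodes or would have had them at the level of the other barcodes. Among those, 28, 34, 16 and 21 were at least 2 fold higher and 0 were at least 2 fold lower in each library. Over all genes of that size, 2.93, 2.91, 16.9 and 23.6% were at least 2 fold higher and 6.68, 9.52, 17.9 and 21.3% at least 2 fold lower. Under the planned limit, 20 UMIs over both sets, the shares were 9.92, 8.24, 55.7 and 60.3% higher and 12.5, 14.3, 7.29 and 6.99% lower. On western diet 11002 and 11647 of the genes then tested had no UMI in hemoglobin-rich barcodes, so the added 0.5 UMIs set their ratio. Under that limit 31 of 64, 36 of 66, 43 of 62 and 49 of 59 erythroid genes were at least 2 fold higher and 2, 3, 0 and 0 at least 2 fold lower, with median log2 ratios of 0.89, 1.51, 2.54 and 3.73 against -0.14, -0.20, 1.31 and 1.59 for all genes tested. A gene can reach that size of 10 through its own high count, so the counts describe and do not test. The median log2 ratio of the erythroid genes of that size was 3.13, 2.95, 6.38 and 6.11, against -0.25, -0.27, -0.29 and -0.47 for all such genes. Without the size limit, 12, 7, 33 and 30 of the 75 genes had no UMI in the hemoglobin-rich barcodes, where depth was 445394, 560202, 24985 and 17256 non-hemoglobin UMIs.

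**Figure D3:**
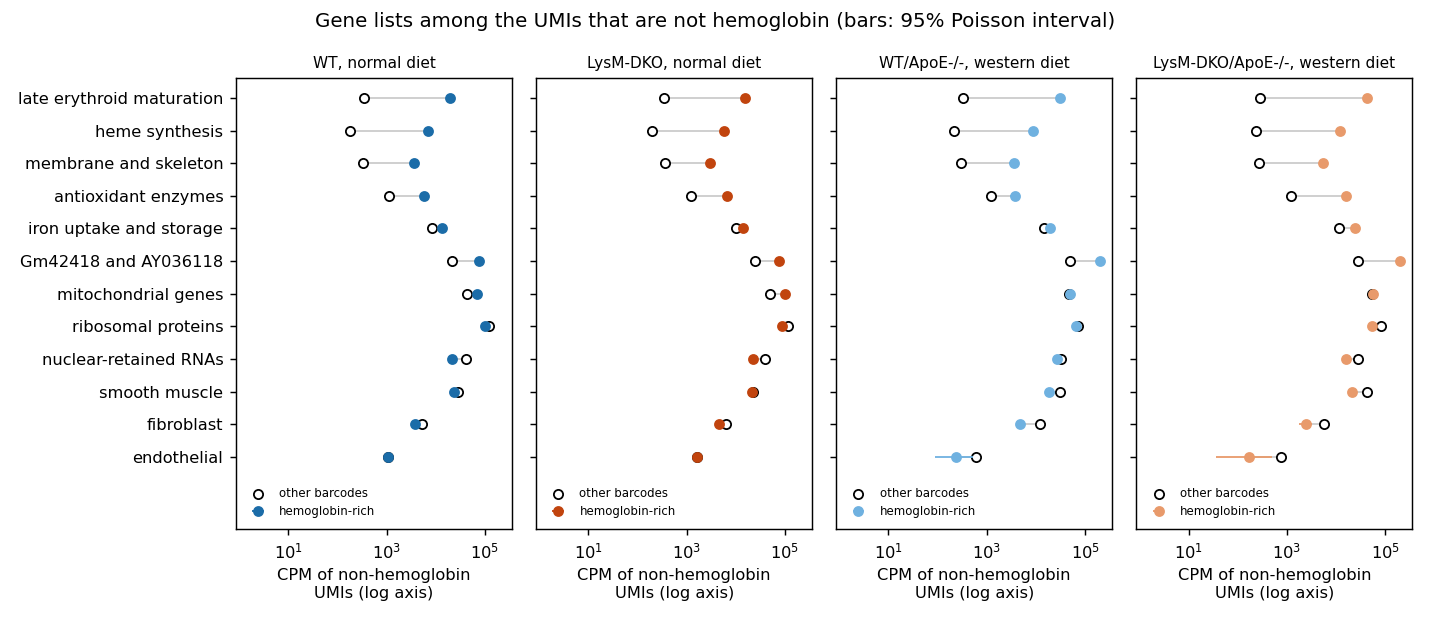
Summed level of 12 gene sets (rows) in hemoglobin-rich barcodes (colored, with 95% Poisson interval) and other kept barcodes (open) of each library, in CPM of non-hemoglobin UMIs (log axis). Late maturation, heme synthesis and membrane genes lie furthest to the right of the open points, while the smooth muscle list lies at or left of them.

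Heme synthesis was carried by its first and last enzymes. Alas2 had 2556, 2585, 169 and 179 UMIs, or 5739, 4614, 6764 and 10373 CPM, and 2.75, 4.73, 1.63 and 0.261 CPM in the other barcodes. Fech had 504, 514, 49 and 26 UMIs, or 1132, 918, 1961 and 1507 CPM, against 24.2, 26, 23.8 and 23.6. Both were at least 2 fold higher in all 4 libraries. Enzymes between them were near absent: Alad had 0, 8, 0 and 0 UMIs and Uros 0, 1, 0 and 0. Urod, which makes coproporphyrinogen, had 13, 40, 0 and 2 UMIs, with log2 ratios of 0.77 and 1.96 on normal diet.

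The late maturation list was led by several genes of known red cell function. Bpgm, the enzyme that makes 2,3-bisphosphoglycerate, had 1654, 1504, 157 and 159 UMIs, or 3714, 2685, 6284 and 9214 CPM. Mkrn1, a ubiquitin ligase, had 1451, 1198, 172 and 133 UMIs. Both were high in every library. Bnip3l, the receptor that marks mitochondria for removal in reticulocytes, had 955, 836, 76 and 67 UMIs and log2 ratios of 4.08, 3.59, 4.74 and 5.25. Tent5c, a poly(A) polymerase, had 1506, 1187, 112 and 64 UMIs. Ube2l6, an enzyme of ISG15 conjugation, had 943, 1050, 80 and 90 UMIs and log2 ratios of 8.22, 7.52, 8.45 and 9.58. In contrast Trim58 and Alox15 of the same list had 0 UMIs in all 4 libraries, and Car1 had 0, 0, 1 and 0.

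Membrane genes were uneven. Epb41, which encodes a protein of the membrane skeleton, had 1244, 944, 65 and 54 UMIs. Slc4a1, the anion exchanger band 3, had 67, 151, 7 and 5 UMIs. Both were more than 2 fold higher in every library, although Slc4a1 rests on 7 and 5 UMIs in the western diet libraries. Aqp1, the water channel that endothelium also makes, was at 96.5, 104, 120 and 58.0 CPM against 103, 139, 150 and 96.4, so it did not stand above the other barcodes. Icam4 had 0 UMIs throughout.

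The antioxidant list summed to 5903, 6646, 3682 and 15879 CPM against 1132, 1233, 1244 and 1234 in the other barcodes. Gpx1, a glutathione peroxidase, had 1600, 2011, 52 and 144 UMIs and log2 ratios of 3.68, 3.56, 2.19 and 4.31. Prdx2, the main peroxiredoxin of red cells, had 394, 750, 16 and 69 UMIs with ratios of 2.31, 2.81, 2.15 and 4.45. Both were lowest against the other barcodes in WT/ApoE-/- and highest in LysM-DKO/ApoE-/-. Sod1 and Txn1 did not stand out: their log2 ratios ran from -0.99 to 0.25 and from -0.36 to -0.08.

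In the iron list, Slc25a37, the mitochondrial iron importer mitoferrin 1, had 752, 1271, 53 and 49 UMIs and log2 ratios of 6.5, 6.39, 6.5 and 7.81. Glrx5, which takes part in iron-sulfur cluster assembly, had 87, 130, 16 and 18 UMIs with ratios of 2.39, 2.46, 3.52 and 4.32. Tfrc, the transferrin receptor, which erythroblasts carry in large amounts, had 35, 46, 1 and 2 UMIs and was at 78.6 and 82.1 CPM on normal diet against 68.1 and 63.8 in the other barcodes. The ferritin genes dominate the sum of the list, and Fth1 was at 7358, 7122, 9726 and 9794 CPM against 6572, 7659, 12587 and 10667 in the other barcodes, above them in 1 library and below in 3. Ftl1 was above in all 4, by log2 ratios of 1.67, 1.06, 1.93 and 3.73.

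Genes of early erythroid cells had few UMIs or none. On western diet a count of 0 allows up to 120 (WT/ApoE-/-) and 174 CPM (LysM-DKO/ApoE-/-) at 3 counts, so absence cannot be read there. Gata1, the master regulator of the lineage, had 0, 1, 0 and 0 UMIs, Klf1 0, 2, 0 and 0 and Epor, the erythropoietin receptor, 0 in all 4. The list of 10 transcription factors summed to 63, 81, 4 and 3 UMIs, or 141 and 145 CPM on normal diet against 103 and 106 in the other barcodes. On western diet it was at 160 and 174 CPM against 87.8 and 70.7, from those 4 and 3 UMIs. Lmo2, which endothelium also makes, held 30, 45, 3 and 1 of the UMIs of that list. Of the early progenitor list, 53, 62, 6 and 0 UMIs were seen, and 0 UMIs in the last library allow up to 174 CPM at 3 counts, or 214 CPM at the upper Poisson bound. In the first 3 libraries this list was at 119, 111 and 240 CPM against 191, 269 and 206 in the other barcodes. Proliferation genes summed to 218 and 221 CPM on normal diet against 179 and 259 in the other barcodes, with Mki67 at 5, 6, 1 and 0 UMIs and Top2a at 12, 7, 0 and 0. Embryonic globins were at most 2 UMIs a gene in each library. The minor alpha-like globin genes Hbq1a and Hbq1b, a near-identical pair, had 34, 25, 0 and 0 and 31, 25, 4 and 2 UMIs.

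By a rule of size, the 15 genes outside hemoglobin, mitochondrial and ribosomal protein genes with the largest smallest ratio over the 4 libraries were named among 132 genes with at least 10 UMIs in each. In order, 14 of them were Alas2, Apol11b, Ube2l6, Bpgm, Isg20, Slc25a37, Mkrn1, Fech, Tent5c, Ube2c, Rsad2, Cd24a, Epb41 and Ube2o. Their smallest ratios ran from 9.93 to 4.07 on the log2 scale. Of the 15, 11 belong to the erythroid lists, which hold 75 of 32285 genes and were chosen with earlier results known. The others were Apol11b, with 168, 255, 12 and 15 UMIs, Ube2c, a ubiquitin-conjugating enzyme of mitosis, with 121, 191, 13 and 27, Rsad2, an interferon-inducible gene, with 297, 521, 40 and 38, and Cd24a, a surface glycoprotein, with 305, 579, 18 and 46. Ube2c was thus high while Mki67, Top2a and Cdk1 (1, 0, 0 and 0 UMIs) were near 0. Of the 132 genes, 58 were higher in all 4 libraries, and 52 at least 2 fold so. The limit of 10 UMIs was on the hemoglobin-rich barcodes alone, which favors genes high there, so these counts only describe. Naming the genes without 1 library in turn kept 15, 14, 12 and 15 of the 15.

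**Figure D4:**
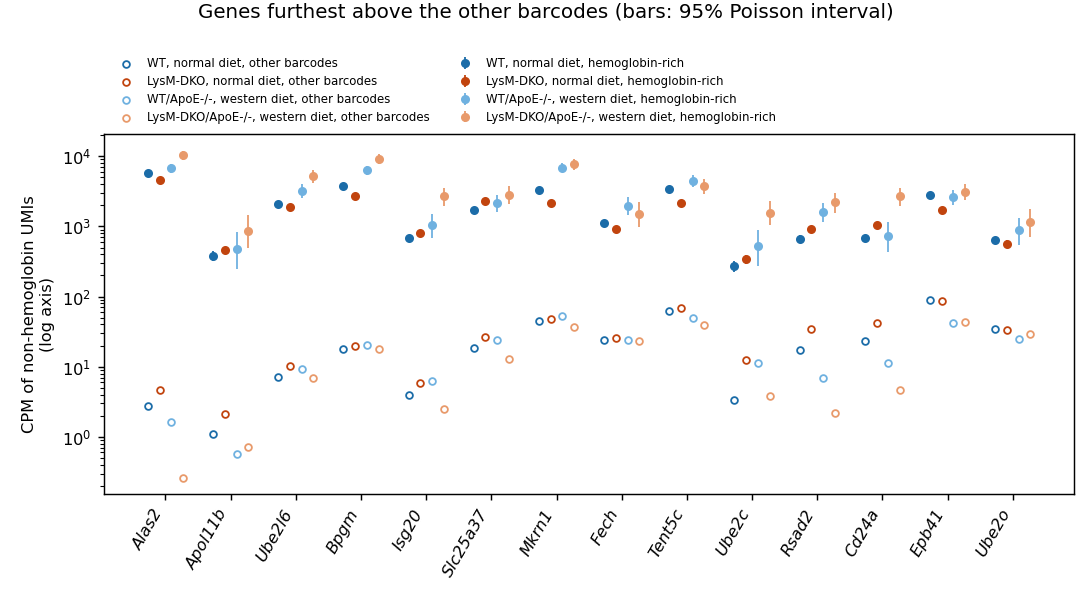
Level of 14 of the 15 genes named by size (x) in hemoglobin-rich (filled, with 95% Poisson interval) and other kept barcodes (open) of each library, in CPM of non-hemoglobin UMIs (y, log axis). Every filled point lies above every open point of its gene, from Alas2 at 4614 to 10373 against 0.261 to 4.73 down to Ube2o at 564 to 1159 against 24.9 to 34.4. The genes were named for a high ratio in each library, so this position follows from the rule.

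The most abundant non-hemoglobin transcripts were not erythroid. Gm42418 (chr17:39846958-39848788, plus strand, a locus of ribosomal RNA sequence) had 59644, 59557, 167901 and 167072 CPM, against 18277, 21369, 43672 and 26301 in the other barcodes. AY036118, which lies inside it on the opposite strand at chr17:39847113-39848035, had 16639, 15489, 30418 and 32279 against 3155, 3663, 6109 and 1868. Whether the counts used strand is not given in the sources used here, so the overlapping pair cannot be told apart. Together they made up 7.63, 7.5, 19.8 and 19.9% of non-hemoglobin UMIs, more than 2 fold above the other barcodes in every library. Malat1 followed with 20216, 21098, 25896 and 15647 CPM, below its level of 37830, 35673, 31419 and 27482 in the other barcodes. The other leading genes were mt-Co3, mt-Atp6, mt-Co2, Tmsb4x, Ubb, Tpt1 and Acta2. Ubb, a ubiquitin gene, stood above the other barcodes by log2 ratios of 1.78, 1.55, 1.63 and 2.81, and Acta2, smooth muscle actin, below by -0.28, -0.12, -0.84 and -1.02.

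Nuclear-retained RNAs as a list were at 52.8, 57.7, 82.1 and 55.8% of their level in the other barcodes. On normal diet, where depth allows more genes to be read, Neat1 was at 667 and 700 CPM against 1662 and 1628, and Kcnq1ot1 at 83.1 and 78.5 against 280 and 267. Ribosomal protein genes were at 84.4, 73.2, 88.5 and 65.3% of that level. Mitochondrial genes made up 7.04, 9.99, 4.84 and 5.67% of non-hemoglobin UMIs against 4.38, 4.98, 4.74 and 5.32% in the other barcodes, so they were higher on normal diet (log2 ratios 0.69 and 1.0) and near equal on western diet (0.03 and 0.09). Because the 10% limit was on all UMIs, hemoglobin widens the room a barcode has for mitochondrial UMIs under it.

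Markers of other aortic cell types were present in the hemoglobin-rich barcodes. The 7 smooth muscle genes summed to 23673, 21162, 18331 and 20746 CPM, which is 83.0, 93.1, 60.6 and 48.9% of the level in the other barcodes. Per barcode they made up 2.63, 2.23, 1.61 and 2.02% of non-hemoglobin UMIs by the median, with the middle 90% of barcodes between 1.25 and 4.12, 1.21 and 3.37, 0.403 and 4.04, and 0.540 and 3.33%. A barcode without any such UMI occurred 0, 0, 1 and 0 times, and 3, 2, 0 and 0 barcodes reached 5%. Among the other kept barcodes the 95th percentile was 5.61, 5.25, 6.06 and 6.55%. The smooth muscle UMIs were therefore spread over nearly all hemoglobin-rich barcodes and not held by a few. Counted with equal weight per barcode, the smooth muscle log2 ratio was 0.27 and 0.30 on normal diet instead of -0.27 and -0.10, so its direction there depends on how barcodes are weighted.

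Fibroblast genes were at 70.6, 72.0, 38.7 and 43.6% of the level in the other barcodes. Endothelial genes were at 101, 99.6, 39.0 and 23.4%, with 6 and 3 UMIs in the western diet libraries. B cell genes were at 16.1 and 30.4% on normal diet, with 381 and 1196 UMIs, while the western diet libraries had 21 and 0. Macrophage genes had 40, 120, 9 and 2 UMIs, T cell genes 56, 69, 0 and 0, neutrophil genes 26, 25, 0 and 0 and platelet genes 30, 17, 5 and 0. Their part in the levels given here was not tested.

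Within the hemoglobin-rich barcodes, erythroid levels were higher where the hemoglobin share was higher. In WT on normal diet the late maturation list was at 4751 CPM in barcodes of 20 to 25% hemoglobin, 6074 at 25 to 40%, 10265 at 40 to 60%, 30061 at 60 to 80% and 41957 above 80%. In LysM-DKO on normal diet the 4 bands up to 80% were at 5189, 6525, 12240 and 24251. Malat1 ran the other way: between the lowest and the highest of these bands it went from 3.29 to 0.826% of non-hemoglobin UMIs for WT and 3.86 to 1.39% for LysM-DKO. The smooth muscle list showed no such order, at 16582, 22039, 25795, 25356 and 24137 CPM over the WT bands. These 19, 49, 120, 361 and 11 WT barcodes come from 1 library. The band of 20 to 25% holds barcodes with 3702 and 2350 non-hemoglobin UMIs by the median in WT and LysM-DKO, many of them from the small deep group above.

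**Figure D5:**
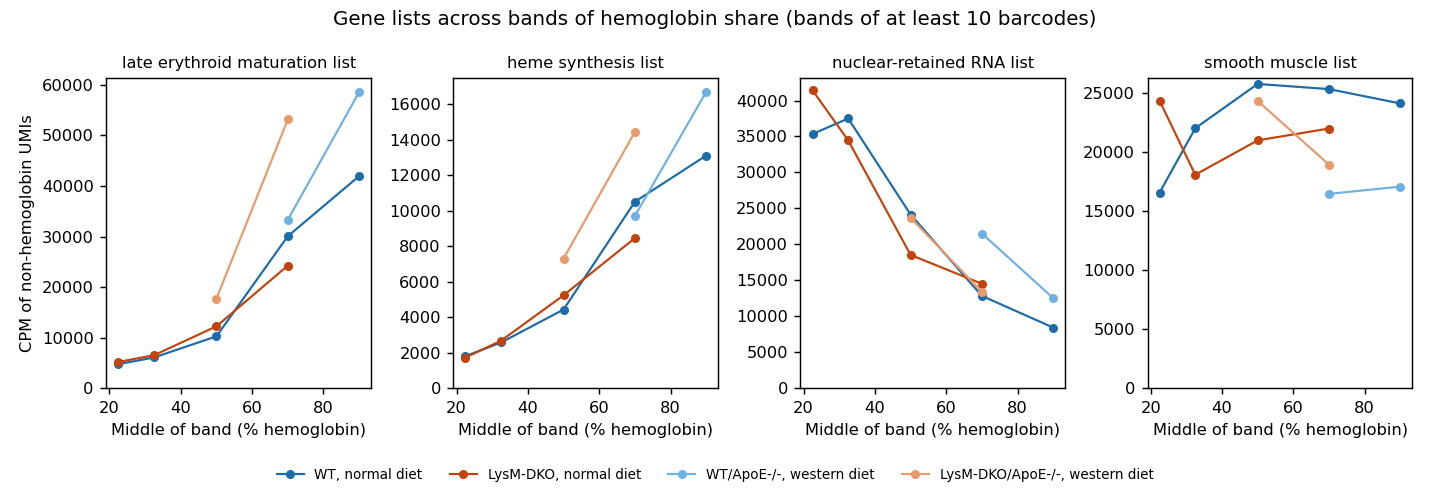
Summed level of 4 lists, in CPM of non-hemoglobin UMIs (y), against the middle of the hemoglobin share band (x) for bands of at least 10 barcodes in each library. Late maturation and heme synthesis lists are higher in bands of more hemoglobin, the nuclear-retained list is lower in the highest band than in the lowest, and the smooth muscle list stays between 16476 and 25795.

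To compare single barcodes at equal depth, each was thinned to 200 non-hemoglobin UMIs, which left out 8 barcodes of WT/ApoE-/- and 0 elsewhere. Alas2 was then seen in 62.7, 62.3, 70.9 and 80.4% of hemoglobin-rich barcodes and in 0.05, 0.25, 0 and 0% of 2000 other barcodes drawn per library. Unthinned values were 85.9, 92.0, 82.5 and 95.7% against 0.45, 1.45, 0.15 and 0.10%. The gene was thus in most hemoglobin-rich barcodes and close to absent from the rest. Acta2, by contrast, was seen in 91.1, 84.8, 70.9 and 78.3% of hemoglobin-rich and 67.0, 63.6, 76.9 and 81.6% of other barcodes. The number of genes per 200 UMIs was 151, 151, 120 and 128 against 164, 162, 155 and 163.

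Traces of hemoglobin lay outside the hemoglobin-rich barcodes, which held 96.2, 94.6, 67.3 and 91.2% of the hemoglobin UMIs of kept barcodes. In the other kept barcodes hemoglobin was 0.0771, 0.117, 0.0487 and 0.00467% of UMIs. Most of it, 74.9, 64.2, 82.0 and 89.5%, lay in 53, 137, 686 and 5 barcodes of 1 to 20% hemoglobin, and in those under 1% it was 0.0195, 0.0424, 0.00886 and 0.000489% of UMIs. No hemoglobin UMI was seen in 42.2, 22.1, 87.0 and 96.9% of the other kept barcodes. The order of these traces between libraries did not follow the share of hemoglobin-rich barcodes within a diet: LysM-DKO/ApoE-/- had the larger share of the western diet pair and the lower trace. It also had fewer hemoglobin-rich barcodes than WT/ApoE-/- (46 against 63), with fewer hemoglobin UMIs in them (27806 against 62284). On normal diet LysM-DKO had fewer such UMIs than WT (781308 against 798154) and the higher trace. Barcodes led by smooth muscle genes carried hemoglobin at 0.0821, 0.139, 0.0617 and 0.00521% of UMIs and those led by fibroblast genes at 0.0464, 0.0645, 0.0265 and 0.000525%. Among barcodes under 1% hemoglobin these were 0.0178, 0.0453, 0.00972 and 0.000483% for smooth muscle and 0.0194, 0.0336, 0.00892 and 0.000525% for fibroblast genes. Low traces were thus seen in both and were close in 3 of the 4 libraries. In WT/ApoE-/- such barcodes led by macrophage, B cell and chondrocyte genes were lower, at 0.00364, 0.00490 and 0.00252%, from 83, 18 and 18 hemoglobin UMIs. Those led by endothelial, macrophage and B cell genes on normal diet were at 0.0239, 0.0183 and 0.0235% for WT. For LysM-DKO they were at 0.0470, 0.0315 and 0.0300%.

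Between genotypes, the profiles of the hemoglobin-rich barcodes were alike on normal diet. Across 1445 genes with at least 100 UMIs in hemoglobin-rich barcodes over the 4 libraries, the rank correlation of WT with LysM-DKO levels was 0.90, and that of each with the other kept barcodes of its own library 0.77 and 0.75. On western diet the 2 genotypes correlated at 0.61, with counts of far fewer UMIs. Each correlated with the other kept barcodes of its own library there at 0.59 (WT/ApoE-/-) and 0.50 (LysM-DKO/ApoE-/-). These are correlations across genes, which are not independent. LysM-DKO over WT, 203 genes (3.6% of 5635) were at least 2 fold higher and 149 (2.64%) at least 2 fold lower on normal diet, and 35 (13.7% of 255) and 25 (9.8%) on western diet, or 14.5 and 10.4% of 241 genes with at least 10 UMIs seen or due. Under median-ratio scaling the western diet counts were 26 higher and 32 lower, so which direction holds more genes there depends on the scaling. Of 243 genes of at least 20 UMIs on both diets, 44 were higher and 77 lower in LysM-DKO on both, together 49.8%.

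In 3 erythroid lists the genotype difference of the summed level had opposite signs on the 2 diets, but in 2 of them this rested on 1 gene. LysM-DKO over WT log2 ratios on normal and western diet were -0.29 (-0.36 to -0.22) and 0.47 (0.19 to 0.75) for heme synthesis, -0.33 (-0.37 to -0.29) and 0.46 (0.31 to 0.61) for late maturation, and -0.27 (-0.37 to -0.17) and 0.64 (0.21 to 1.08) for membrane genes. Without the most abundant gene of each list, left out after the values were seen, the late maturation ratios were -0.30 (-0.35 to -0.25) and 0.44 (0.27 to 0.60). Membrane genes without Epb41, which had 1244 and 944 of their 1588 and 1658 UMIs on normal diet, were higher in LysM-DKO on both diets, at 0.72 (0.54 to 0.91) and 1.33 (0.58 to 2.13), and the median of their 10 and 2 genes with at least 20 UMIs was 0.26 and 1.83. Heme synthesis without Alas2 was at -0.20 (-0.36 to -0.03) and -0.18 (-0.88 to 0.49). The antioxidant list was higher on both, at 0.17 (0.10 to 0.24) and 2.10 (1.76 to 2.47). Of the list genes with at least 20 UMIs, 4 of 46 on normal diet and 6 of 20 on western diet were at least 2 fold higher, and 1 and 0 at least 2 fold lower. Over all genes with at least 20 UMIs, 3.6 and 13.7% were at least 2 fold higher and 2.64 and 9.8% at least 2 fold lower. The hemoglobin share differs between these libraries as well (58.2 against 64.2%, and 61.7 against 71.4%), and so do the UMIs per barcode, and their part in these ratios was not tested.

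By the rule for genes of the same sign on both diets, the genes above WT in LysM-DKO included Creg1, Arf5, Car2 and Prxl2a. Car2, carbonic anhydrase 2 and an erythroid list gene, was at 391 and 696 CPM on normal diet and at 200 and 1565 on western diet, log2 ratios of 0.83 and 2.86. Its western diet values rest on 5 and 27 UMIs. Creg1, a secreted glycoprotein, had ratios of 0.90 and 2.36, Arf5, a small GTPase, 0.92 and 1.33, and Prxl2a, a peroxiredoxin-like gene, 0.83 and 2.07. In the other kept barcodes Creg1, Arf5 and Prxl2a had ratios of 0.08, 0.31 and 0.20 on normal diet and of -0.22, -0.05 and -0.10 on western diet. The genes named as lower were Jund, Ccn2, Tm4sf1, Id3 and Rps27, with ratios from -0.58 to -0.39 on normal diet and from -1.79 to -0.69 on western diet. In the other kept barcodes the same genes had ratios from -0.44 to -0.08 and from -0.63 to 0.98. On western diet the intervals of Tm4sf1, Id3 and Rps27 span 0.

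Between diets, the western diet hemoglobin-rich barcodes had more of the ribosomal RNA locus and less ribosomal protein RNA. Western over normal diet log2 ratios for Gm42418 with AY036118 were 1.38 (1.34 to 1.42) for WT and, for LysM-DKO, 1.41 (1.36 to 1.46). Ribosomal protein genes were lower, at -0.66 (-0.73 to -0.58) and -0.66 (-0.76 to -0.57), and so were mitochondrial genes, at -0.54 (-0.62 to -0.46) and -0.82 (-0.91 to -0.73). Ribosomal protein genes were also lower in the other kept barcodes of the western diet libraries, at 11.97 against 7.24% of non-hemoglobin UMIs for WT (normal against western diet) and 11.8 against 8.33% for LysM-DKO, so this difference was not confined to the hemoglobin-rich barcodes. The other kept barcodes of the western diet libraries also had more of the locus in WT, at 49782 against 21431 CPM, and slightly more in LysM-DKO, at 28169 against 25032. Late maturation genes were higher by 0.67 (0.56 to 0.77) and 1.46 (1.35 to 1.57), while the antioxidant list was -0.67 (-1.0 to -0.38) for WT and, for LysM-DKO, 1.26 (1.07 to 1.43). These sums include the small deep group, which lay almost wholly in the normal diet libraries. Without it, late maturation on normal and western diet was at 23970 and 33207 CPM for WT and 17652 and 42536 for LysM-DKO. Diet, ApoE genotype and Cell Ranger version cannot be told apart in these values.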

How the data were processed

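Counts of UMIs per gene and barcode were deposited by the authors as 4 matrices of whole numbers without scaling, and they were made with Cell Ranger 6.0.1 for the normal diet and 6.1.2 for the western diet libraries, per the file headers. The submitters' processing notes name Cell Ranger 6.1.2, Seurat 4.1.0 and mm10. The cell calling settings and use of strand are not given in the sources used here. Matrices held 13831, 15826, 29724 and 11414 barcodes and 51281643, 50662515, 67450979 and 62510744 UMIs.

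UMIs were summed over hemoglobin-rich barcodes (at least 500 UMIs, at most 10% mitochondrial, at least 20% from the 4 genes) and over the other kept barcodes of each library, and levels were scaled to the UMIs left after removing hemoglobin. Ratios used 0.5 added UMIs and exact conditional binomial intervals, levels exact Poisson intervals, shares Clopper-Pearson intervals and differences of shares Newcombe intervals, all at 95%. Genes needed 20 UMIs over both sets. The calculation was tested on simulated data. Scripts used Python 3.11.15, numpy 2.4.6, scipy 1.17.1 and, for scrublet, scanpy 1.11.5. Scrublet scored barcodes of at least 1000 UMIs and the highest scores were marked, 0.8% per 1000 scored. Doublets were kept in the reported values.

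With 1 library per group, genes were named by size: the erythroid lists, the 15 genes with the largest smallest ratio over the 4 libraries, the 10 most abundant, and 5 genes per direction with the same genotype sign on both diets. The members and the 20 lists were chosen with earlier results of these data known. The limits of 10 UMIs seen or due and of 2000 non-hemoglobin UMIs were added after the data were seen. Of 176 list genes, 1 was not used here. Promoter sequences came from RefSeq (GRCm38.p6), gene positions from GENCODE M21 by gene ID. Values of 4 list genes are not reported here singly.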

Additional observations from a re-analysis of the deposited data

Results flagged for a closer look

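LysM-DKO minus WT had opposite signs on the 2 diets in the share of kept barcodes and in 11 of the 19 gene sets that had more than 3 UMIs in a library on both diets. Among 243 single genes with at least 20 UMIs on both diets, 49.8% had the same sign on both, so opposite signs were common among single genes too. Each value comes from 1 library per group, and the difference between diets was not tested. The share differed by -0.135 percentage points on normal and 0.268 on western diet. Within hemoglobin-rich barcodes the log2 ratio, LysM-DKO over WT, was -0.29 and 0.47 for heme synthesis, -0.27 and 0.64 for membrane and skeleton genes, and -0.33 and 0.46 for late maturation. Of these 3, the opposite signs were still there only for late maturation once the most abundant gene was left out. The ratio was 0.0470 and -0.73 for nuclear-retained RNAs, 0.25 and -0.93 for fibroblast genes, -0.16 and 0.18 for smooth muscle genes and -0.0236 and 0.00755 for the ribosomal RNA locus, the last close to 0 on both diets. Few UMIs on western diet stand behind 0.60 and -0.36 for endothelial genes (6 and 3 UMIs in WT/ApoE-/- and LysM-DKO/ApoE-/-), 1.24 and -1.39 for macrophage genes (9 and 2) and 0.24 and -0.31 for chondrocyte genes. B cell genes were at 1.32 on normal diet and, on western diet with 21 and 0 UMIs, at -2.27 or lower, taking 3 counts for the library at 0.

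Barcodes of at least 20% hemoglobin with more than 10% mitochondrial UMIs, which the rule leaves out, numbered 29 (WT) and 47 (LysM-DKO) in the normal diet libraries.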

How the results depend on the processing

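No paired analysis was possible because each group has 1 library and the labels give no replicate numbers. Values follow the order of the report, as reported: hemoglobin share of UMIs 64.2, 58.2, 71.4 and 61.7%, erythroid log2 ratio (6 lists summed) 2.26, 1.86, 1.99 and 2.88, and smooth muscle log2 ratio -0.27, -0.10, -0.72 and -1.03. The erythroid ratio stayed positive under every alternative tried. Causes of the shifts below were not tested.

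With hemoglobin of at least 10%, these were 60.3, 54.6, 51.7 and 55.4%, 2.09, 1.71, 1.12 and 2.59, and -0.18, -0.0493, -0.31 and -0.54, and the share of kept barcodes in WT/ApoE-/- was 0.375%. With at least 50%, they were 72.0, 66.9, 79.95 and 63.8% and 2.69, 2.24, 2.55 and 3.01, with smooth muscle -0.16 and -0.0394 on normal diet. Shares of kept barcodes on normal diet were then 4.91 and 4.16%, and western minus normal diet -4.72 and -3.72 points. With at least 1000 UMIs, hemoglobin was 65.5, 58.9, 75.7 and 64.0%, the erythroid ratio 2.34, 1.89, 2.25 and 3.27, and smooth muscle -0.32 in WT and -1.04 in WT/ApoE-/-. The LysM-DKO shares were then 6.57% and 0.246%, their diet difference -6.33 points, and LysM-DKO minus WT on western diet turned to -0.0306. With up to 20% mitochondrial UMIs the normal diet libraries gave shares of 4.69 and 4.54%, hemoglobin 63.0 and 57.2%, erythroid 2.29 and 1.92, smooth muscle -0.22 and -0.0767, and diet differences of -4.47 and -4.09 points.

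Without marked doublets the normal diet libraries gave 68.2 and 60.9%, 2.47 and 1.97, and -0.13 and -0.0420. With equal weight per barcode, hemoglobin was 63.1, 56.4, 68.0 and 60.6%, erythroid 2.51, 2.05, 2.28 and 2.80, and smooth muscle 0.27, 0.30, -0.51 and -0.88, so its direction turned on normal diet. The next 3 were chosen after seeing the data. Without barcodes of 2000 or more non-hemoglobin UMIs the first 3 libraries gave 69.3, 62.0 and 73.1%, 2.53, 2.02 and 2.08, and -0.13, -0.0259 and -0.56. Without Fth1 and Ftl1 the erythroid ratio was 3.94, 3.58, 4.38 and 5.16. Among barcodes under 5% smooth muscle UMIs that ratio was -0.18 in LysM-DKO.

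Counts of genes past 2 fold depended most on the size limit. With 20 UMIs over both sets, higher and lower genes were 1550 and 1949, 1322 and 2296, 8842 and 1157, and 9132 and 1059. In the western diet libraries 11002 and 11647 of the genes tested had no UMI in hemoglobin-rich barcodes, so the added 0.5 sets their ratio. With 10 UMIs seen or due, they were 181 and 412, 207 and 677, 67 and 71, and 74 and 67. With 50 UMIs, 851 and 665 were higher on normal diet, and LysM-DKO over WT gave 45 higher and 19 lower on normal and 8 and 4 on western diet. Without a limit, 9127, 8748, 15773 and 15932 were higher, and LysM-DKO over WT gave 2933 and 2353, and 1593 and 2745. Median-ratio scaling gave 5426 and 4779 in WT/ApoE-/- and 5379 and 4850 in LysM-DKO/ApoE-/-, so the split of higher against lower calls there rests on scaling. On normal diet it gave 1926 and 1559 in WT and 1644 and 1686 in LysM-DKO, and for LysM-DKO over WT 26 and 32 on western diet, where the reported counts were 35 and 25. With hemoglobin of at least 50%, WT had 2348 higher and 3055 lower, LysM-DKO 2075 higher, and LysM-DKO over WT 95 lower on normal and 8 on western diet. Without the most abundant gene of each list, also chosen after seeing the data, the LysM-DKO over WT ratio of membrane genes on normal diet turned from -0.27 to 0.72, that of heme synthesis on western diet from 0.47 to -0.18, and late maturation kept both signs.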
